A study of Mus musculus with 42 samples.

Results

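The Microprocessor pairs the nuclease Drosha with DGCR8, a protein that binds double-stranded RNA, and cuts hairpins out of primary microRNA transcripts in the nucleus, and after export the nuclease Dicer1 completes most mature microRNAs. Cells without DGCR8 therefore lack most canonical microRNAs, which in mouse embryonic stem cells (ESCs) include the abundant miR-290 cluster and, as cells leave the naive state, the related miR-302 cluster. Argonaute proteins loaded with a microRNA pair its seed to target transcripts, and the bound Tnrc6 proteins bring about their decay or silencing.

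The knockout (KO) of DGCR8 was compared with unmodified DGCR8 at 24 and 48 h of conversion from naive ESCs to epiblast-like cells (EpiLCs), a culture model of the step by which the epiblast leaves naive pluripotency. The members are the polyA RNA libraries of a DGCR8 knockout ESC line at 24 and 48 h, set against those of the KH2-ISY1 line without doxycycline (Dox) at the same hours, which makes 4 of the 42 samples of the series, with 16345 named genes. KH2-ISY1 carries a Dox-inducible Flag-tagged copy of the splicing factor ISY1, which was not induced in the libraries used here, and the labels give the treatment of the knockout line as not applicable. The labels name the knockout as a line of its own, so DGCR8 loss and the difference between the lines cannot be told apart. The labels do not state which part of Dgcr8 is deleted, how many clones the line represents or the strain of either line. Both lines were also sampled at 0, 6, 72 and 96 h, and KH2-ISY1 at 12, 18, 30 and 36 h. There was 1 library per line and hour, so the spread of the KO minus KH2 difference between neighbouring hours stood in for replicate spread in all tests.

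Libraries of the knockout held an estimated 12.91 and 11.78 M reads at 24 and 48 h, against 6.22 and 6.17 M reads in KH2-ISY1. Values are normalised reads, that is, gene reads divided by 1 factor per library, and 1 read was worth 0.422 and 0.4666 normalised reads in the knockout, against 0.9094 and 0.8846 in KH2-ISY1. A gene listed at 0 may have an expected count of up to 3 reads, which is 1.27 and 1.40 normalised reads in the knockout, against 2.73 and 2.65 in KH2-ISY1; such limits cover counting error only. Mitochondrially encoded transcripts made up 4.87% and 4.94% of the values in the knockout, against 3.36% and 3.19% in KH2-ISY1, and their part in the results was not tested. The pluripotency factor Pou5f1 (Oct4) stood at 12154.0 and 10756.1 normalised reads in the knockout, against 11414.5 and 8288.5 in KH2-ISY1, while the 4 measured feeder fibroblast markers summed to 22.7 and 34.1, against 49.1 and 49.6.

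The microRNAs present at 48 h could be read from KH2-ISY1 alone, since no small RNA library of the knockout was analysed here; how their signal was scaled is not given in the sources used here. In the small RNA library of KH2-ISY1 at 48 h, miR-293 and miR-292 of the miR-290 cluster ranked 1 and 2 of 256 microRNAs, with signals of 36873.9 and 28632.9. From the same cluster, miR-295, miR-294 and miR-291a had 10362.4, 8763.5 and 7650.2 and ranked 4, 5 and 8, and miR-302b of the second cluster had 885.7. From another locus, miR-20a of the miR-17-92 cluster had 8535.6 and ranked 6. The first of the target lists below rests on a seed with the core AAGUGC, so sequences with that core are shown. They were found by the names of the small RNA table, so a microRNA named otherwise in RefSeq would be missed. That miR-293 and miR-292 are not shown is therefore no evidence about their seeds. Bases 2 to 8 of the mature strand, the seed, are in capitals; the small RNA table names no arm, so the RefSeq arm with the AAGUGC core is printed.
mmu-miR-295-3p: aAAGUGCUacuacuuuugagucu
mmu-miR-294-3p: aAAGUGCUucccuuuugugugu
mmu-miR-291a-3p: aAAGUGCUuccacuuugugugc
mmu-miR-302b-3p: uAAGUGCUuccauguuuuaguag
mmu-miR-20a-5p: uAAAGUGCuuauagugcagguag
mmu-miR-17-5p: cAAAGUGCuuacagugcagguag
The first 4 carry the seed AAGUGCU, and miR-20a and miR-17 carry AAAGUGC, the same core moved by 1 base. In RefSeq GRCm38.p6 the mature miR-295-3p lies on the plus strand at chr7:3220815-3220837, miR-302b-3p at chr3:127545275-127545297 and miR-20a-5p at chr14:115044183-115044205.

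Dgcr8 transcript was lower in the knockout without being lost. It stood at 41.8 and 42.1 normalised reads in the knockout, against 138.2 and 75.2 in KH2-ISY1. The log2 difference was -1.26 ± 0.35 with a limma adjusted p of 0.0336. Here and below ± gives the limma standard error (SE) of the mean difference at 24 and 48 h. Its spread was drawn from all 6 pairs. Both knockout values lay below every KH2-ISY1 library between 18 and 48 h. Which exons the remaining reads cover cannot be read from values per gene. The call did not hold without the 24 h pair (adjusted p = 0.299), without the 48 h pair (adjusted p = 0.0733) or after centring on neighbouring genes (adjusted p = 0.073).

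At 24 and 48 h, 4381 of 16267 tested genes (26.9%) differed between the lines at a limma adjusted p below 0.05. Of these, 1846 (11.3%) were higher in the knockout and 2535 (15.6%) were lower, and by at least 2-fold 1127 were higher and 1453 lower. The median gene differed by -0.12 on the log2 scale; after median-ratio scaling of the libraries that shift was 0.00 and the split became 2319 higher and 1960 lower, so small falls depend on the scaling. At an unadjusted p below 0.05 the count was 6617. Every gene called had the same sign at both hours, and 1423 of the 1846 higher genes and 1915 of the 2535 lower genes kept that sign at all 6 hours sampled. The test favours such genes, since disagreement between 24 and 48 h widens its spread, so equal signs at both hours are no separate support. The other hours also enter that spread, and the share of all tested genes that kept their sign at 6 hours was not computed. A second reading, which needs no model, set both knockout libraries against the 5 KH2-ISY1 libraries between 18 and 48 h. Here 2496 genes (15.3%) were higher at both hours than in every one of these, and 4477 (27.5%) were lower. It reuses the same knockout libraries, so it is no separate support. Only the deposited scaling was used for it, so how its split depends on the scaling was not tested.

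**Figure D1:**
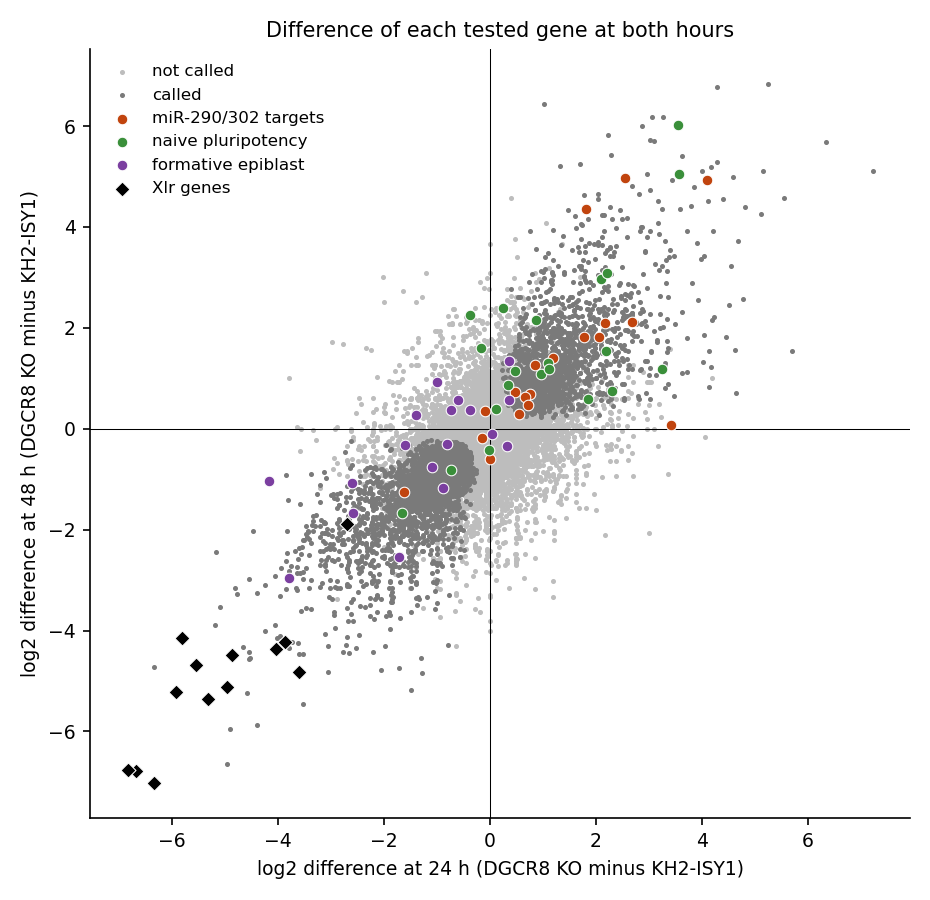
Each point is 1 tested gene, with its log2 difference (DGCR8 KO minus KH2-ISY1) at 24 h on the x axis and at 48 h on the y axis; called genes are dark grey and members of 3 lists and the Xlr genes are marked. Called genes lie in the 2 quadrants of equal sign, with the Xlr genes at the lower left and most of the miR-290/miR-302 targets and naive genes at the upper right.

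Among genes with a mean of at least 20 normalised reads, the largest rises included signalling molecules and transcription factors that were listed at 0 in KH2-ISY1 at 1 or both hours. Hhip, a membrane antagonist of Hedgehog ligands, stood at 148.5 and 33.6 normalised reads in the knockout, against 0.0 and 0.0 in KH2-ISY1, so it was at least 54.4-fold and at least 12.7-fold higher against 3 reads per library. Glis3, a zinc finger transcription factor, had 80.2 and 50.5, against 0.0 and 0.0. Ntn1, the secreted guidance cue netrin 1, had 530.4 and 107.9, against 26.4 and 0.0. In each of these genes both knockout libraries lay above all KH2-ISY1 libraries between 18 and 48 h.

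Trh, the precursor of thyrotropin-releasing hormone, had 3977.6 and 2220.1 normalised reads in the knockout, against 110.9 and 63.7 in KH2-ISY1 (log2 5.13 ± 0.48, adjusted p = 0.00102, limma). The 8 other genes with the largest rises by the same rule were A2m (a secreted protease inhibitor), Klf2 (a naive pluripotency factor described below), Nlrp12 (an innate immune receptor), the predicted gene Gm10800, Casq2 (the cardiac calcium-binding protein calsequestrin), Myo1a (a brush border myosin), Vax2 (a homeobox factor) and Ncam1 (the neural cell adhesion molecule). Their fitted log2 differences ran from 4.60 for Ncam1 to 6.04 for A2m, and each had adjusted p at or below 0.00382. The RefSeq span of Nlrp12 holds 8 hairpins of the miR-290 cluster, 6 of them on the opposite strand; its values were 2474.7 and 3057.0, against 126.4 and 77.9. Whether the counting used strand is not given in the sources used here, so reads of Nlrp12 and of the uncut primary transcript of that cluster cannot be told apart.

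Most of the largest falls were of 1 gene family. Of the 12 genes with the largest falls, 8 were X-linked lymphocyte-regulated (Xlr) genes. All 13 Xlr genes tested were called lower, beside 15.6% of all genes, with a median of -5.04 beside -0.12 over all tested genes. Xlr3a had 3.4 and 6.1 normalised reads in the knockout, against 173.6 and 289.4 in KH2-ISY1, and Xlr5a was listed at 0.0 and 0.0, against 100.9 and 109.7, which makes it at least 79.7-fold and at least 78.4-fold lower. The Xlr genes are near-identical copies, so the split of reads among them is uncertain and their calls are not separate observations. The difference was already present at 0 and 6 h, where the mean log2 difference of Xlr3a was -5.03.

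The other 4 falls by this rule were Matn3 (the cartilage matrix protein matrilin 3), Car4 (a membrane carbonic anhydrase), Dnajc5g (a DnaJ protein) and Cacng6 (a calcium channel subunit). Car4 had 0.4 and 7.9 normalised reads in the knockout, against 40.9 and 550.4 in KH2-ISY1. At the later hours the knockout had 121.2 at 72 h and 311.6 at 96 h, against 631.0 and 1003.8 in KH2-ISY1. Matn3, in contrast, stayed at or below 2.6 in the knockout at all 6 hours, against 3.6 to 148.7 in KH2-ISY1.

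Reported targets of the miR-290/miR-302 family were mostly higher in the knockout. Of 19 genes of this list, all of them tested, 12 were higher and 1 was lower (background 11.3% and 15.6%). The median log2 difference was 1.06 beside -0.12 over all tested genes. Taken by hour, the list median was 0.85 at 24 h and 0.73 at 48 h, beside 0.72 at 0 and 6 h and 0.99 at 72 and 96 h. It ranged from 0.69 to 1.30 over the settings run, and was 0.72 among members with a mean of at least 10. Of the 19 genes 13 stood above all 5 KH2-ISY1 libraries between 18 and 48 h, as did 15.3% of all genes. Lats2, a kinase of the Hippo pathway, had 434.2 and 327.1 normalised reads in the knockout, against 66.4 and 75.2 in KH2-ISY1 (log2 2.40 ± 0.21, adjusted p = 0.000858). Casp2, an initiator caspase, had 896.2 and 932.7, against 197.3 and 216.8 (log2 2.14 ± 0.14, adjusted p = 0.000443). Rbl2 (p130), a pocket protein that represses E2F genes, had 385.2 and 327.6, against 91.8 and 92.9 (log2 1.93 ± 0.18, adjusted p = 0.00102). For these 3 genes the knockout libraries stood 3.53 to 6.54 times as high as their partners of the same hour, and the groups did not overlap.

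Irf2, a transcription factor of the interferon pathway, reached 46.8 and 84.1 normalised reads in the knockout, against 1.8 and 1.8 in KH2-ISY1, which is 2 reads in each KH2-ISY1 library. Ei24, an endoplasmic reticulum protein, had 1087.3 and 1138.8, against 471.8 and 431.0. Tgfbr2, the type II receptor for TGF-beta, had 121.1 and 36.4, against 34.5 and 9.7. Its lower value was at 48 h in both lines, and the knockout at 48 h lay just above KH2-ISY1 at 24 h. Smaller rises were called for the methyl-CpG-binding protein Mbd2 (log2 0.72), the chromatin factor Arid4b (0.65), the actin regulator Cfl2 (0.60) and the NF-kappaB subunit Rela (0.60).

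Not every reported target rose. The cell cycle inhibitor Cdkn1a had 499.6 and 739.7 normalised reads in the knockout, against 532.7 and 580.5 in KH2-ISY1 (log2 0.13 ± 0.20, adjusted p = 0.67), and the groups overlapped. Wee1, a kinase that delays mitosis, was 0.42 ± 0.16 higher with an adjusted p of 0.0851, and passed after median-ratio scaling. The GTPase Rhoc was called lower, with 46.0 and 85.0, against 143.6 and 205.3 (log2 -1.44 ± 0.19, adjusted p = 0.00261). Of the 12 calls of higher members 8 remained when the 24 h pair was left out, and likewise 8 when the 48 h pair was; the calls of Mbd2, Arid4b and Rela were lost in both, that of Cfl2 without the 24 h pair and that of Lefty1 without the 48 h pair, with adjusted p between 0.0573 and 0.155.

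**Figure D2:**
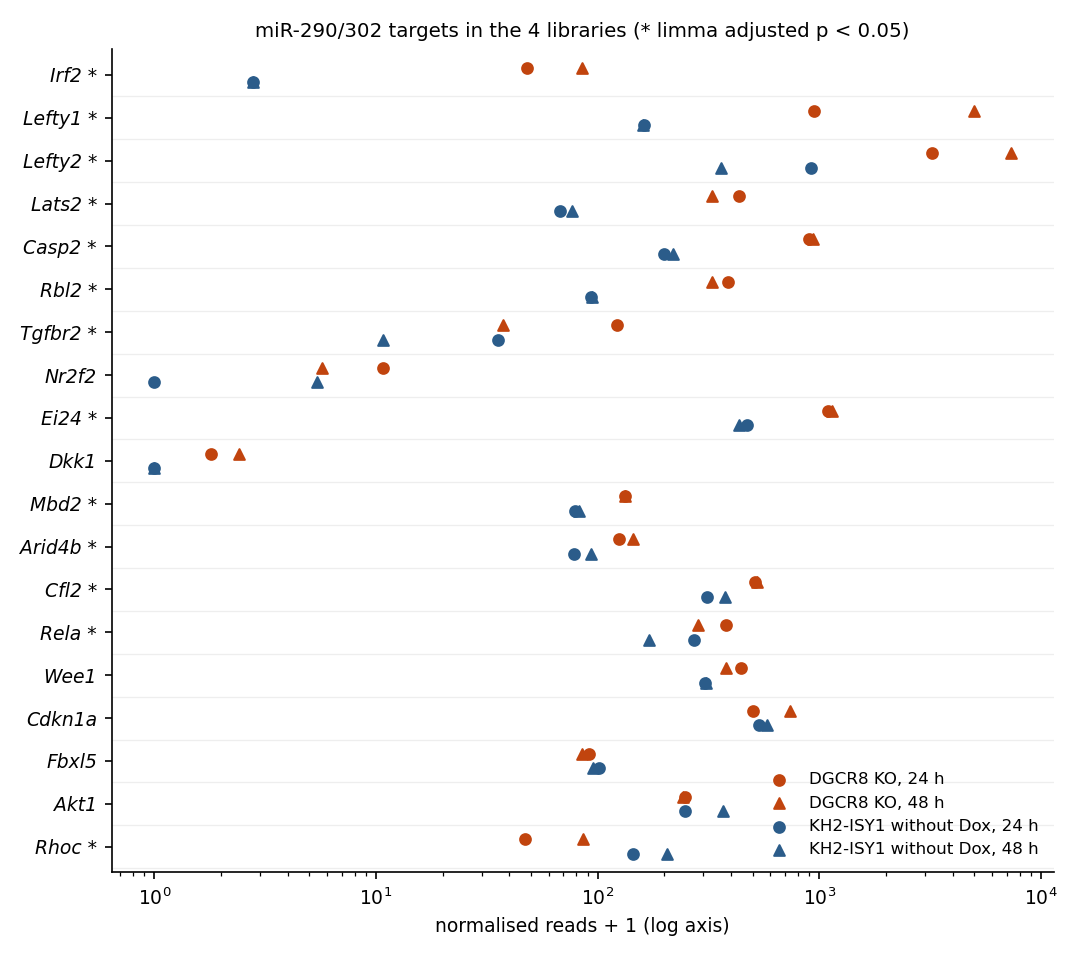
Values of the 19 reported miR-290/miR-302 targets on a log axis (normalised reads + 1), with DGCR8 KO in the upper and KH2-ISY1 in the lower line of each gene, circles for 24 h and triangles for 48 h. From Irf2 down to Rela the knockout symbols lie to the right of their partners of the same hour, while Rhoc at the bottom shows the opposite order.

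Lists of targets reported for the miR-17-92 cluster and let-7 had medians of 0.23 and 0.12. Of the 7 miR-17-92 targets, Tgfbr2 and Rbl1, the pocket protein p107, were called higher and the other 5 were not called. The call of Rbl1 (log2 0.66 ± 0.19, adjusted p = 0.0343) was lost when either pair was left out (adjusted p = 0.196 and 0.111). The list of 14 let-7 targets held 4 called higher (Lin28b, Ccnd1, Dicer1 and Igf2bp2) and 3 called lower (Lin28a, Nras and Cdc25a), beside 11.3% and 15.6% of all genes. Of these 7, Nras and Lin28a remained called without the 24 h pair, and these and Lin28b without the 48 h pair (adjusted p of the lost calls 0.0542 to 0.329).

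Among reported miR-200 targets and genes of the epithelial and mesenchymal states, mesenchymal genes were higher and epithelial genes lower. The repressors of epithelial genes Snai1 and Zeb1 were called higher, as were the adhesion molecule Cdh2 and the filament protein Vim. The epithelial adhesion molecules Epcam and Cdh1 were called lower, and Snai2 and Twist1 were not called. That made 4 higher and 2 lower of 8 tested (background 11.3% and 15.6%), with a list median of 1.08. Vim had 1750.2 and 1356.5 normalised reads in the knockout, against 394.5 and 192.9 in KH2-ISY1 (log2 2.48 ± 0.54, adjusted p = 0.014). Snai1 had 74.3 and 53.7, against 6.4 and 5.3 (log2 3.23 ± 0.29, adjusted p = 0.00093). Epcam had 599.2 and 1344.4, against 1582.7 and 2817.7 (log2 -1.23 ± 0.14, adjusted p = 0.00161). The knockout exceeded its KH2-ISY1 partner at both hours for the first 2 genes and fell short at both for Epcam, although Cdh1 remained abundant at 3738.4 and 2987.9, against 4446.4 and 5494.7. The call of Vim was lost without the 24 h pair (adjusted p = 0.0922) and without the 48 h pair (0.15), those of Zeb1 (0.115) and Cdh1 (0.313) without the 48 h pair, and that of Cdh1 after median-ratio scaling (0.0972).

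Of the silencing factors, the scaffold proteins of the Tnrc6 family and Ago1 were higher in the knockout. Ago1 had 2163.3 and 1750.9 normalised reads in the knockout, against 718.2 and 803.5 in KH2-ISY1 (log2 1.36 ± 0.17, adjusted p = 0.00233). Tnrc6a had 1035.0 and 994.4, against 493.6 and 411.5 (log2 1.17 ± 0.17, adjusted p = 0.00359). Tnrc6b rose by 1.20 and Tnrc6c by 0.93 on the log2 scale. These 4 of 7 members held their calls when either pair was left out, and none of the 7 was called lower (background 11.3% higher and 15.6% lower). Ago2, the Argonaute with slicing activity, was not called, with 3913.5 and 2307.9, against 2314.5 and 2654.0 (log2 0.28 ± 0.21, adjusted p = 0.364).

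Upstream of Argonaute, 6 of the 8 processing factors were not called, while 26.9% of all tested genes were called in either direction. Drosha had 714.8 and 667.3 normalised reads in the knockout, against 755.5 and 703.5 in KH2-ISY1 (log2 -0.08 ± 0.15, adjusted p = 0.725), and the groups overlapped. Dicer1 had 1763.3 and 1699.1, against 1114.5 and 1120.4 (log2 0.63 ± 0.13, adjusted p = 0.0119), a call that was lost when either pair was left out (adjusted p = 0.0699 and 0.0542). Of the microRNA host genes of the list, 4 were measured. Mcm7, a helicase subunit whose introns hold miR-106b, miR-93 and miR-25, was higher (log2 0.71 ± 0.15, adjusted p = 0.0119; 0.083 without the 48 h pair). Sfmbt2, a Polycomb protein, was lower, with 18.1 and 13.6, against 88.2 and 78.8 (log2 -2.34 ± 0.29, adjusted p = 0.00218).

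Naive pluripotency genes stood higher in the knockout at both hours. Of 21 genes of this list, 12 were called higher and 1 lower (background 11.3% and 15.6%), with a median log2 difference of 1.19 beside -0.12 over all tested genes. Klf2, a Krüppel-like factor of the naive network, had 1646.4 and 1503.3 normalised reads in the knockout, against 139.1 and 22.1 in KH2-ISY1 (log2 4.79 ± 0.52, adjusted p = 0.00149). Prdm14, a repressor of differentiation genes, had 528.7 and 177.6, against 43.6 and 4.4 (log2 4.31 ± 0.37, adjusted p = 0.000816). Nanog had 2346.8 and 990.7, against 644.5 and 658.4 (log2 1.23 ± 0.28, adjusted p = 0.0163), and the orphan receptor Esrrb had 1738.8 and 743.5, against 817.3 and 301.8 (log2 1.19 ± 0.17, adjusted p = 0.0033). The excess of Nanog was larger at 24 h and that of Klf2 at 48 h, a change between the hours that did not pass for any gene.

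Naive transcripts were fewer late in the course in both lines. The 21 genes summed to 62446.1, 42800.9, 32843.6 and 11314.1 normalised reads in the knockout at 0, 24, 48 and 96 h, against 61195.6, 29518.9, 18980.7 and 5148.5 in KH2-ISY1. Nanog of the knockout at 48 h (990.7) lay between KH2-ISY1 at 18 h (1493.0) and 24 h (644.5). Esrrb of the knockout at 48 h (743.5) lay just below KH2-ISY1 at 36 h (776.3), and Klf4 of the knockout at 24 h (596.2) above KH2-ISY1 at 12 h (287.4). Of the 21 genes 5 stood above all KH2-ISY1 libraries between 18 and 48 h, as did 15.3% of all genes: Klf2, Prdm14, Pecam1, Fgf4 and Spp1. In bulk samples like these, more cells with a naive profile and more RNA per cell cannot be told apart.

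The other naive genes called higher were Jam2, Nr5a2, Klf4, Tbx3, Tfcp2l1, Spp1, Pecam1 and Tet2, with log2 differences from 1.03 for Tet2 to 2.65 for Jam2. Gbx2, a homeobox factor, was called lower, with 57.4 and 25.2, against 181.8 and 82.3 (log2 -1.66 ± 0.35, adjusted p = 0.0123). Among the abundant members Dppa5a had 14803.0 and 16692.5, against 13627.3 and 12688.5 (adjusted p = 0.277). Without the 24 h pair the calls of Klf4, Nanog, Tbx3, Tfcp2l1, Gbx2, Pecam1 and Spp1 were lost (9 genes of the list called higher in that fit), and without the 48 h pair those of Klf4, Gbx2, Jam2, Pecam1 and Spp1 (8 called higher), with adjusted p between 0.0595 and 0.394. The median of the list was 0.17 at 0 and 6 h and 1.54 at 72 and 96 h.

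Formative genes, which come on as cells leave the naive state, were lower in the knockout where called. None of the 18 genes of this list was called higher and 7 were called lower (background 11.3% and 15.6%), with a median of -0.56. Only 1 of the 18 stood below all KH2-ISY1 libraries between 18 and 48 h, beside 27.5% of all genes. The median of the list was 0.08 at 0 and 6 h and 0.24 at 72 and 96 h. Fgf5, a secreted growth factor and the usual marker of EpiLCs, had 5.9 and 61.7 normalised reads in the knockout, against 93.6 and 482.3 in KH2-ISY1 (log2 -3.36 ± 0.38, adjusted p = 0.00162). The POU factor Pou3f1 had 21.9 and 291.1, against 407.3 and 596.5 (log2 -2.59 ± 0.68, adjusted p = 0.0272). The de novo methyltransferase Dnmt3a had 123.6 and 665.0, against 755.5 and 1402.7 (log2 -1.84 ± 0.34, adjusted p = 0.0077). All 3 genes had more reads at 48 h than at 24 h in the knockout too, and their knockout values at 48 h lay between those of KH2-ISY1 at 18 and 24 h: for Fgf5, 61.7 beside 5.2 and 93.6.

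The remaining called members were Sox3, Sall2, Zic5 and Wnt8a; Wnt8a rested on at most 2.8 normalised reads in the knockout, against 3.6 and 21.2. Otx2, a homeobox factor that binds enhancers of the formative state, was not called and had 431.2 and 778.5 in the knockout, against 336.4 and 523.0 (log2 0.47 ± 0.34, adjusted p = 0.343). Dnmt3b was lower by 0.55 ± 0.22 without passing (adjusted p = 0.0938). The list's count rested on 24 h: without that pair only Fgf5 remained called (adjusted p of the others 0.0526 to 0.392), while without the 48 h pair 7 genes were called and, of the original 7, only Wnt8a was lost (adjusted p = 0.124). The list's median of the difference was -0.94 at 24 h and -0.31 at 48 h, but no gene of the table passed the test of a change between the 2 hours, as given below.

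**Figure D3:**
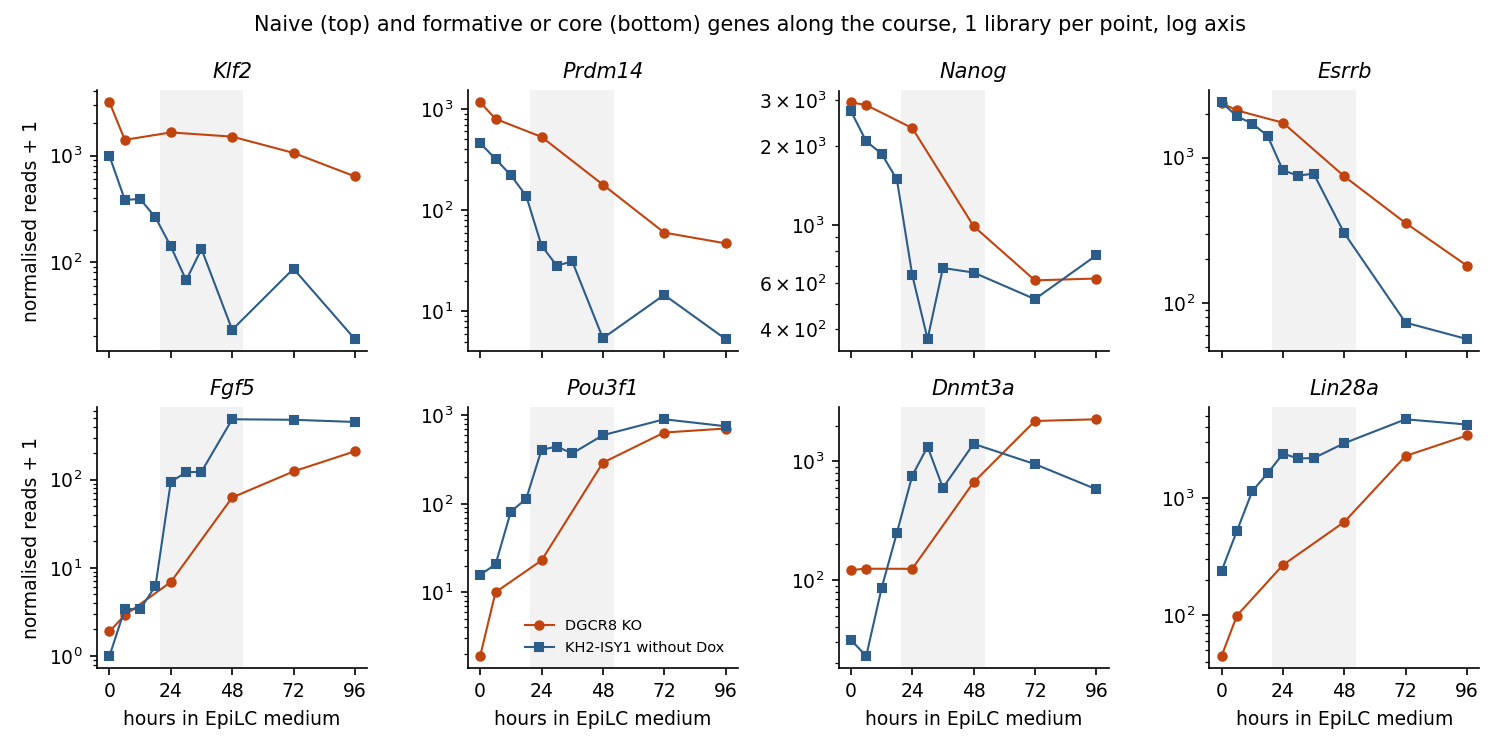
Normalised reads + 1 (log axis) of 4 naive genes in the top row and of Fgf5, Pou3f1, Dnmt3a and Lin28a in the bottom row against hours in EpiLC medium, with 1 library per point, red circles for DGCR8 KO and blue squares for KH2-ISY1 without Dox; the grey band marks 24 and 48 h. Within the band the knockout lies above KH2-ISY1 in the top row and below it in the bottom row.

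The core pluripotency factors were split. Sox2 had 3008.9 and 2602.8 normalised reads in the knockout, against 1673.6 and 973.5 in KH2-ISY1 (log2 1.13 ± 0.20, adjusted p = 0.00628), and Sall4 and Zfp281 were also called higher. Lin28a, the RNA-binding protein that blocks let-7 maturation, had 266.2 and 621.0, against 2371.8 and 2916.8 (log2 -2.69 ± 0.24, adjusted p = 0.00093), and lay below KH2-ISY1 at all 6 hours. Its paralog Lin28b ran the other way, with 259.1 and 350.9, against 70.0 and 191.2 (log2 1.37 ± 0.31, adjusted p = 0.0159), a call lost without the 24 h pair as given above. Pou5f1 was not called (log2 0.23 ± 0.15, adjusted p = 0.29). The call of Zfp281 was lost without the 24 h pair (adjusted p = 0.0512) and without the 48 h pair (0.0895), and that of Sox2 without the 48 h pair (0.0734).

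The secreted inhibitors of Nodal signalling Lefty1 and Lefty2 were higher in the knockout. Lefty2 had 3230.4 and 7326.2 normalised reads in the knockout, against 918.2 and 359.3 in KH2-ISY1 (log2 3.08 ± 0.47, adjusted p = 0.00417). Lefty1 had 949.4 and 4992.5, against 160.0 and 158.4 (log2 3.77 ± 0.59, adjusted p = 0.0043; 0.0573 without the 48 h pair). Both are also on the list of miR-290/miR-302 targets. At 0 and 6 h the mean log2 differences of Lefty1 and Lefty2 were 1.02 and -0.35, although the test of a change between those hours and 24 and 48 h did not pass for either gene (adjusted p = 0.371 and 0.177). The ligand Nodal itself was not called, with 647.7 and 441.6, against 402.7 and 421.2 (adjusted p = 0.297).

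Of the 12 genes of the Nodal and TGF-beta list, 5 were called higher and none lower (background 11.3% and 15.6%). Besides the Lefty genes and Tgfbr2 these were the type I receptor Tgfbr1 (log2 0.86 ± 0.15, adjusted p = 0.00608) and the inhibitory Smad7 (log2 0.82 ± 0.14, adjusted p = 0.00607; 0.0528 without the 24 h pair). Lefty1 and Lefty2 lie in the raised stretch of chromosome 1 described below, and after centring on neighbouring genes they remained called.

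Targets of the MEK/ERK pathway were lower where called. Spry2, a feedback inhibitor of receptor signalling, had 229.1 and 230.4 normalised reads in the knockout, against 885.5 and 581.4 in KH2-ISY1 (log2 -1.64 ± 0.21, adjusted p = 0.00229). The phosphatase genes Dusp4 (log2 -1.52 ± 0.28) and Dusp6 (-0.93 ± 0.28) and the AP-1 subunit Fosl1 (-1.42 ± 0.41) were also called lower. None of the 13 members was called higher, 4 were called lower (background 11.3% and 15.6%) and 9 were not called. Of the 4 calls that of Spry2 held when either pair was left out (adjusted p of the others 0.0776 to 0.219), and Dusp6 was not called after median-ratio scaling.

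In the Wnt list 2 of 11 genes were called higher and 3 lower (background 11.3% and 15.6%). The secreted antagonist Sfrp1 was higher, with 4358.2 and 2348.1 normalised reads in the knockout, against 696.4 and 380.5 in KH2-ISY1 (log2 2.63 ± 0.17, adjusted p = 0.000443). Tcf7l1, a repressor of Wnt target genes, was also called higher (log2 0.91 ± 0.24, adjusted p = 0.0269). Axin2, a feedback inhibitor often used as a readout of the pathway, was called lower, with 43.0 and 19.6, against 135.5 and 69.0 (log2 -1.70 ± 0.38, adjusted p = 0.0146). The ligands Wnt3 and Wnt8a were called lower from few reads. Without the 24 h pair the 3 falls of this list were lost, and without the 48 h pair these and Tcf7l1 (adjusted p between 0.0526 and 0.269).

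Of 16 regulators of the G1/S transition 6 were called higher and 2 lower (background 11.3% and 15.6%). Cyclin genes Ccnd1 and Ccnd2, the kinase Cdk6 and the inhibitors Cdkn1b (p27), Rbl1 and Rbl2 were called higher, and Ccne1 and Cdkn2a lower. Ccnd1 had 2792.4 and 2780.4 normalised reads in the knockout, against 1454.5 and 874.3 in KH2-ISY1 (log2 1.30 ± 0.39, adjusted p = 0.0421). Cdkn1b had 271.7 and 266.4, against 120.0 and 113.3 (log2 1.20 ± 0.20, adjusted p = 0.00581). Ccne1, a cyclin that drives entry into S phase, had 673.4 and 772.9, against 2082.7 and 1452.2 (log2 -1.27 ± 0.25, adjusted p = 0.0103). Of the 8 calls only that of Rbl2 held without the 24 h pair, and those of Rbl2, Ccne1 and Cdkn2a without the 48 h pair (adjusted p of the lost calls 0.0553 to 0.329).

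For stress and death genes the shares over all genes were again 11.3% higher and 15.6% lower. Of 10 p53 targets, Sesn2 was called higher and Mdm2, Zmat3 and Bbc3 lower, with log2 differences between -0.85 and 0.72, and all 4 calls were lost when either pair was left out (adjusted p 0.0608 to 0.231). Of 11 apoptosis regulators, Casp2 was called higher and Bbc3 lower. In the interferon list 5 of 15 tested genes were called higher and 1 lower: Ifitm3, which restricts virus entry, had 1816.9 and 1887.4 normalised reads in the knockout, against 1065.5 and 892.9 in KH2-ISY1 (log2 0.92 ± 0.14, adjusted p = 0.00414). The tethering factor Bst2 had 214.3 and 473.4, against 951.8 and 2271.7 (log2 -2.20 ± 0.17, adjusted p = 0.000674). The calls of Irf9, Mavs and Ifitm1 in this list were lost without the 24 h pair (adjusted p 0.0611 to 0.109) and that of Ifitm1 without the 48 h pair (0.221).

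Of 15 glycolytic genes Pfkp and Pfkm were called higher and Aldoa, Ldha, Pfkl and Pkm lower, beside 11.3% and 15.6% of all genes. Aldoa, an aldolase, had 962.0 and 1393.5 normalised reads in the knockout, against 2465.5 and 3023.9 in KH2-ISY1 (log2 -1.24 ± 0.13, adjusted p = 0.00135). Of the 6 calls only that of Aldoa held whichever pair was left out (adjusted p of the lost calls 0.0722 to 0.219). In the DNA methylation list the demethylase genes Tet2 and Tet3 were called higher and Dnmt3a lower, out of 8. Of 8 germline genes 4 were called lower, led by level by Dazl, an RNA-binding protein, with 67.1 and 36.0, against 366.4 and 128.3 (log2 -2.12 ± 0.23, adjusted p = 0.00149). The calls of Dnmt3a and Tet3 were lost without the 24 h pair and those of the germline genes Sycp3 and Tdrd1 when either pair was left out (adjusted p 0.0565 to 0.329).

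Markers of other lineages are given beside the same shares over all genes, 11.3% higher and 15.6% lower. The 7 neuroectoderm genes summed to 1126.0 and 521.0 normalised reads in the knockout, against 484.5 and 542.5 in KH2-ISY1, most of it from the tubulin gene Tubb3, which was not called (adjusted p = 0.0834). The neural factor Sox1 was called lower, with 13.5 and 22.0, against 79.1 and 102.7 (log2 -2.32 ± 0.43, adjusted p = 0.00783; 0.094 and 0.068 without the 24 h and 48 h pair). Of the mesoderm and heart list, Tbx20, a T-box factor, was called higher, with 236.7 and 47.7, against 8.2 and 2.7 (log2 4.20 ± 0.40, adjusted p = 0.00102), while the other 5 tested genes stood at or below 7.9 in every one of the 4 libraries.

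Primitive streak genes gave 1 higher call (Evx1) and 2 lower (Eomes and Wnt3) of 7 tested, and T was listed at 0.0 in all 4 libraries; all 3 calls were lost when either pair was left out (adjusted p between 0.0583 and 0.421). Of the endoderm list Gata4 was called higher and Gata6 lower, from at most 18.1 normalised reads in these 4 libraries. The trophoblast list, which simple epithelia also express, gave Krt8 higher (log2 0.74 ± 0.20) and Krt18 lower (log2 -2.03 ± 0.42). Calls lost were those of Gata6 when either pair was left out, Gata4 and Krt18 without the 48 h pair and Krt8 without the 24 h pair (adjusted p 0.104 to 0.295). None of the 6 two-cell-like genes was called; they summed to 0.8 and 7.0 normalised reads, against 8.1 and 27.5.

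**Figure D4:**
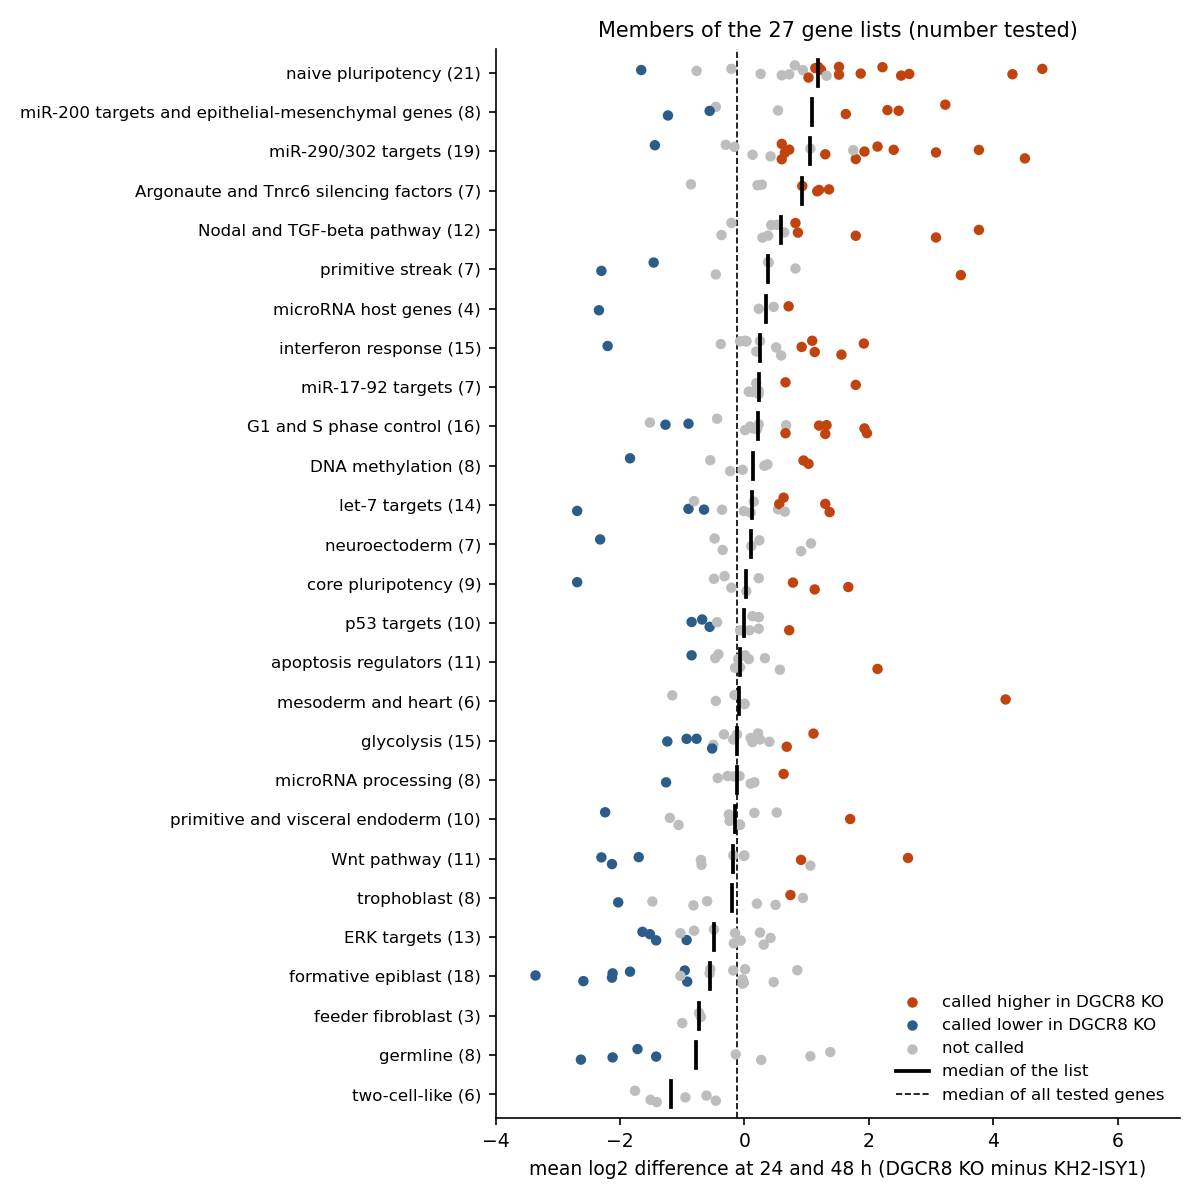
Mean log2 difference at 24 and 48 h (DGCR8 KO minus KH2-ISY1, x axis) of every tested member of the 27 lists, with the number tested in brackets; red points were called higher, blue points lower and grey points not called, black bars are list medians and the dashed line is the median of all tested genes (-0.12). The naive list and the miR-290/miR-302 targets lie to the right of that line with medians of 1.19 and 1.06, and the formative list lies to its left at -0.56.

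The difference at 24 h was then set beside that at 48 h. Across all tested genes the difference at 48 h and that at 24 h had a Pearson's r of 0.676, a description over genes of 4 libraries, which are not independent replicates. No gene passed the test of a change of the difference between 24 and 48 h (0 of 16267, limma; 1541 at an unadjusted p below 0.05), a test with 2 residual degrees of freedom. Single values differed widely all the same: Lefty1 was 5.93 times as high in the knockout as in KH2-ISY1 at 24 h and 31.5 times at 48 h.

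The difference at 24 and 48 h was also tested against that at the hours before and after, with 3 residual degrees of freedom, so a gene that did not pass is not shown to be alike. Against 0 and 6 h, 4 genes (0.0246%; 1533 at an unadjusted p below 0.05) passed, 2 in each direction (0.0123%), and all are named here. Ncam1 had 60.0 normalised reads at 6 h in the knockout, against 41.1 in KH2-ISY1, and 153.2 at 24 h, against 4.5. Glis3 had 152.4 at 6 h, against 78.6, and 80.2 at 24 h, against 0.0. The log2 difference of Ncam1 at 24 and 48 h exceeded that at 0 and 6 h by 4.02 (adjusted p = 0.035), and that of Glis3 by 4.78 (adjusted p = 0.035). Peg3, an imprinted zinc finger gene, had 370.0 and 307.5, against 1902.7 and 1966.4, and its KH2-ISY1 level had been 202.6 at 0 h, beside 221.3 in the knockout; the change of the difference was -2.80 (adjusted p = 0.018). Plcg2, a phospholipase, changed by -3.18 (adjusted p = 0.035).

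Against 72 and 96 h, 30 genes (0.184%; 2025 at an unadjusted p below 0.05) passed, 12 higher (0.0738%) and 18 lower (0.111%). Glis3 (3.65), Zbp1 (3.63), Ctnnd2 (3.62), Dnajc6 (2.99) and Ncam1 (2.97) had the largest positive changes of the log2 difference, with adjusted p between 0.0435 and 0.0466. Dpp4 (-3.61), Nckap1l (-3.34), Rhox5 (-3.07), Ptprn (-3.01) and H2afy2 (-2.99) had the largest negative changes, with adjusted p between 0.0435 and 0.0448. Rhox5, an X-linked homeobox gene, had 143.9 and 215.0 normalised reads in the knockout at 24 and 48 h, against 1660.9 and 1541.6 in KH2-ISY1, but 647.1 and 531.5 at 72 and 96 h, against 937.0 and 426.4. None of the 4 calls against 0 and 6 h and none of the 30 against 72 and 96 h was made in the fit with no intensity trend.

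Part of the difference between the lines followed chromosome position, as seen by ordering 12234 placed genes by their RefSeq start. In 6 stretches of at least 40 neighbouring genes the running median over 51 genes lay at least 0.3 from that of all placed genes (-0.10). On chromosome 2, 151 genes from Srsf6 to Cables2 had a median log2 difference of 0.79, and 86.8% of them lay above the all-gene median. On chromosome 14, 50 genes from Rps3a2 to Tmtc4 had a median of -1.08. Chromosome 1 held 259 genes from Dtymk to Dcaf8 (0.42) and 104 from Pigm to Cr1l (0.48), chromosome 6 held 48 from Sec61a1 to Shq1 (0.46) and chromosome 4 held 53 from Klhl21 to Plekhn1 (-0.46). The chromosome 1 stretches spanned ranks 350 to 608 and 611 to 714 of 714 placed genes, so they nearly adjoined and reached the last gene. That of chromosome 14 spanned ranks 397 to 446 of 446. The stretches were chosen after the values were seen, so no test is given.

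Each stretch kept its sign at every hour, not always its size: over the 6 hours the median of the chromosome 2 stretch ran from 0.71 to 0.93 and that of the chromosome 14 stretch from -1.25 to -0.84. Those of chromosome 1 ran from 0.41 to 0.56 and from 0.48 to 0.55, that of chromosome 6 from 0.22 (0 h) to 0.50, and that of chromosome 4 from -0.42 to -0.18 (96 h). In the 4 raised stretches 249 of 703 tested genes (35.4%) were called higher and 31 lower, and in the 2 lowered ones 54 of 122 (44.3%) were called lower and 6 higher. Over all genes the shares were 11.3% higher and 15.6% lower, and an excess follows from picking the stretches by these same differences. Tested genes here include those under the mean of 20 normalised reads needed for placing. Named genes inside raised stretches were Lefty1, Lefty2, Nr5a2, Tfcp2l1 and Zfp281 on chromosome 1, Sall4, Snai1 and Zbp1 on chromosome 2 and Trh on chromosome 6; Spry2 and Zic5 lay in the lowered stretch of chromosome 14. After centring each library on 101 neighbouring genes Zfp281 (log2 0.18) and Zic5 (0.02) were no longer called, whereas Lefty1, Lefty2, Nr5a2, Tfcp2l1, Sall4, Snai1, Zbp1, Trh and Spry2 were.

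**Figure D5:**
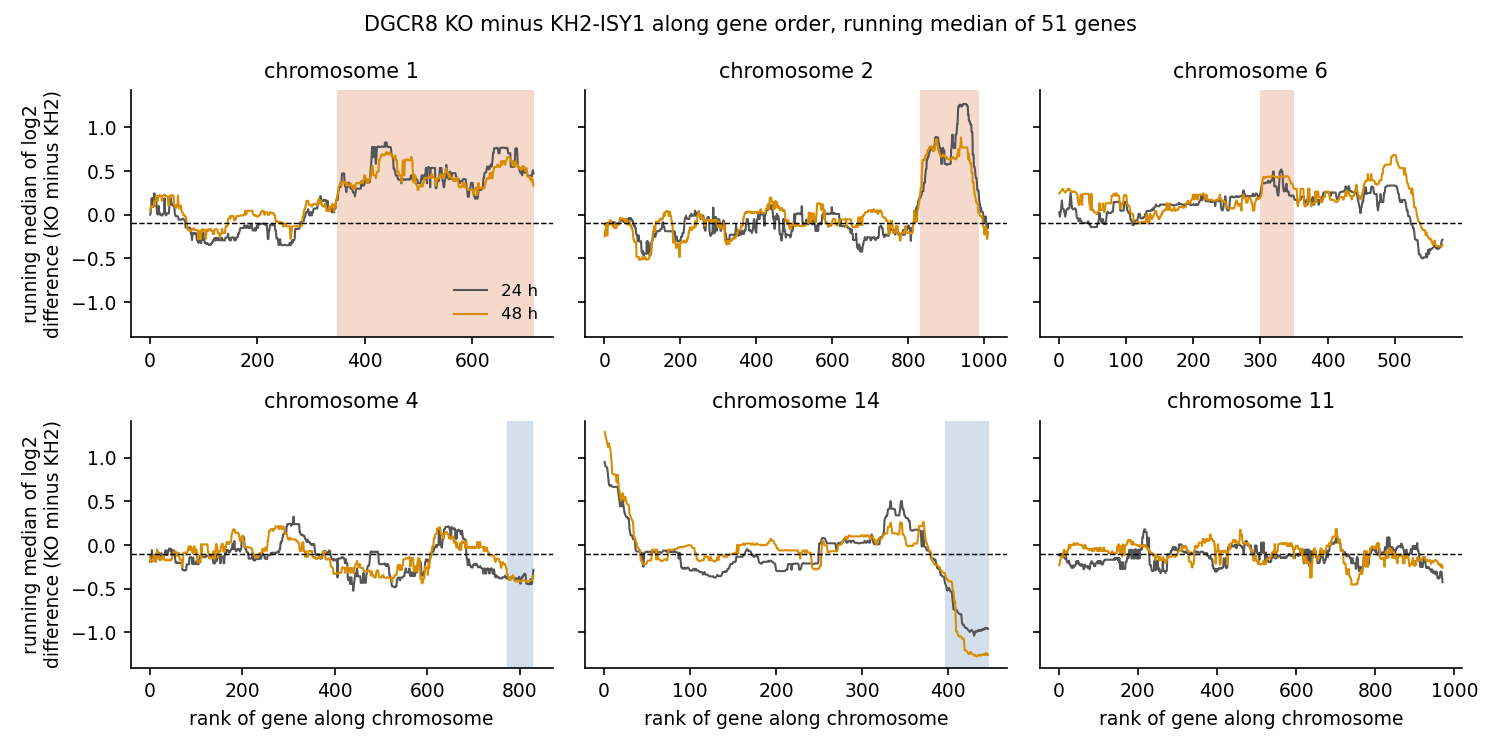
Running median over 51 neighbouring genes of the log2 difference (DGCR8 KO minus KH2-ISY1) at 24 h (grey) and 48 h (orange) against the rank of the gene along 6 chromosomes; red shading marks raised stretches, blue shading lowered ones and the dashed line the median of all placed genes. The shifts of chromosomes 1, 2 and 14 coincide at both hours, while chromosome 11, shown for contrast, holds no stretch.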

How the data were processed

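PolyA RNA (TruSeq Stranded mRNA kit, per the labels' protocols) was read from 1 deposited table. Its values are a signal per gene that the authors scaled before depositing it: gene reads divided by 1 factor per library, as the values show; how the factor was set is not given in the sources used here. The submitters' processing notes name Bowtie and the builds GRCm38 and mm9 without roles. The small RNA table gives a deposited signal per microRNA. In the knockout library at 24 h 83.6% of low values lay within 0.1 reads of a whole number (95% needed), so no count test was run. Rounding of the deposited values alone can reach 0.118 reads in that library, so this check cannot tell whether its values are whole reads.

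The test was limma 3.58.1 (R 4.3.3) on log2(value + 1) of 12 libraries, both lines at 0, 6, 24, 48, 72 and 96 h, with the hour as a block, separate line effects for 0 and 6, 24 and 48, and 72 and 96 h, and genes of mean at least 1. This left 3 residual degrees of freedom, and p-values were Benjamini-Hochberg adjusted over 16267 genes. The block is the shared hour, given in the labels. Since each hour has 1 library per line, p-values measure the spread between hours, not between cultures, and fold changes of low genes are understated. Named genes were Dgcr8, list members, the 12 largest called in each direction with a mean of at least 20 and equal sign at both hours, and the 5 largest in each direction of the other contrasts. The members and lists were chosen with earlier results of these data known. The procedure was tested on simulated data. Of 16345 named genes 15765 matched RefSeq (GRCm38.p6), which gave order, hairpins and sequences; 20 names turned into dates were not named. Alternatives were other pseudocounts, filters, scalings and priors, no block, fewer libraries, and pairs left out. Results of a few genes are not reported here.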

Additional observations from a re-analysis of the deposited data

Results flagged for a closer look

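These genes are listed because their difference between the lines at 24 and 48 h departed from that at other hours by a test of the change itself (limma, adjusted p below 0.05). Against 0 and 6 h the log2 change was 4.78 for Glis3, 4.02 for Ncam1, -2.80 for Peg3 and -3.18 for Plcg2. Against 72 and 96 h it was 3.65 for Glis3, 3.63 for Zbp1, 3.62 for Ctnnd2, 2.99 for Dnajc6 and 2.97 for Ncam1. In the other direction it was -3.61 for Dpp4, -3.34 for Nckap1l, -3.07 for Rhox5, -3.01 for Ptprn and -2.99 for H2afy2. Each hour holds 1 library per line.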

How the results depend on the processing

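Against 4381 calls (1846 higher, 2535 lower), separate fits made 1640 (782, 858) when the 24 h pair was left out and 1904 (844, 1060) when the 48 h pair was, totals that may include other genes; leaving out 1 of the 6 pairs in turn gave 1640 to 4774 calls, 782 to 2006 higher and 858 to 2768 lower. Without the hour as a block, that is, without the pairing by hour, there were 1871 calls (740 higher, 1131 lower). TMM-like scaling gave 2402 higher and 1885 lower. Against 0 and 6 h, 4 calls became 0 with no intensity trend and 1 with no block, and 0 to 4 with 1 pair left out; against 72 and 96 h, 30 became 0 with no trend and 0 with no block, and 0 to 1 with 1 pair left out. The change between 24 and 48 h gave 0 calls under every setting run. Of 125 named calls, 67 held without the 24 h pair, 78 when the 48 h pair was left out, 118 after median-ratio scaling, 115 after TMM-like scaling, 60 without the block and 91 without the trend. Signs of genes not called turned for Ago2 (-0.20 to 0.76), Cdkn1a (-0.09 to 0.35) and Dpp4 (-0.21 to 0.85) with 1 pair left out, and for Drosha (0.04, 0.06 and 0.01 after median-ratio scaling, TMM-like scaling and neighbour centring). Neighbour centring, chosen after seeing the data as was leaving out the genes of the 6 stretches, turned Zic5 to 0.02 and kept 109 named calls; leaving out the stretches gave 1578 higher and 2424 lower. The cause of these changes was not tested.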

Other observations

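Beyond the lists, genes were grouped by the stem of their symbol, with no test. Of 150 large ribosomal subunit genes and pseudogenes with the stem Rpl, 46 were called lower and 0 higher, with a median log2 difference of -0.44, beside 15.6% lower, 11.3% higher and a median of -0.12 over all genes, and many of these copies share reads. Of 14 Timm genes, which encode parts of mitochondrial import, 9 were lower and 0 higher (median -0.85), and of 24 genes with the stem Cox, mostly subunits and assembly factors of cytochrome c oxidase, 11 were lower and 1 higher (-0.64). Histone demethylase genes of the stem Kdm ran the other way, with 8 of 17 higher and 0 lower (0.60). The stems were chosen after their values were seen, and small falls depend on the scaling.

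Of the genes whose RefSeq span holds a microRNA hairpin, 88 of 526 tested (16.7%) were higher and 71 (13.5%) lower, beside 11.3% and 15.6% of all genes, with a median of 0.0 beside -0.12; this difference was not tested. Rtl1, an imprinted gene whose span holds 15 hairpins, had 86.1 and 112.6 normalised reads in the knockout, against 13.6 and 23.0 in KH2-ISY1. Its log2 difference was 2.41 ± 0.52 (adjusted p = 0.0131, limma). The strand of these hairpins relative to Rtl1 was not determined. As for Nlrp12, reads of the gene and of uncut primary transcripts cannot be told apart. Larp7, whose span holds the 5 hairpins of the miR-302 cluster on the opposite strand, had 830.0 and 938.8, against 753.6 and 747.8 (adjusted p = 0.237).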
